A study of Homo sapiens with 6 samples.

Results

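Named antisense RNAs were taken as the genes of biotype antisense whose name ends in -AS1 and that had at least 100 counts summed over the 6 libraries of the study. Of 867 antisense genes with such a name, 135 met that minimum, and the deposited table lists 58735 genes in all. Each was set beside its partner, the gene whose name precedes -AS1. A partner row was found for 134 of the 135 (HOXB-AS1 is named for a cluster and has none), and 122 partners had enough counts to be tested. They were thus selected on the summed count of both groups, so the total counts are a property of the choice and not a result. Members ranged from 100 counts in ASH1L-AS1 and TBX2-AS1 to 10667 in FGD5-AS1, with a median of 273, and 16 exceeded 1000.

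A natural antisense transcript is read from the DNA strand opposite to another gene, and the suffix -AS1 marks it as the first antisense RNA named for that gene. Head-to-head pairs overlap by their 5′ parts, with no limit set here on the distance between the starts. Divergent pairs do not overlap, and their starts lie within 2000 bases. Where the starts lie close together, a promoter region can be shared or adjacent. Genes can also overlap by their ends (tail to tail), or either can lie inside the other. In any overlapping position the transcripts can hold complementary stretches that may pair into double-stranded RNA. Double-stranded RNA is the substrate of ADAR1, an adenosine deaminase that makes inosine in it and that limits the sensing of the cell's own double-stranded RNA. Some antisense RNAs are known to raise or lower the output of their partner, and many have no known function.

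The study compared 3 libraries of KYSE410 cells labelled siADAR1 (genotype ADAR1 knockdown) with 3 control libraries of the same line (titled NC, genotype wild type). KYSE410 is an established oesophageal squamous cell carcinoma line, both groups were grown in RPMI with serum, and the labels name no other treatment. The labels do not say which siRNA was used, how long it acted, or whether the controls received a control siRNA, so effects of delivery, of off-target binding and of ADAR1 loss itself cannot be told apart. Separate cultures are not stated either, and if the replicates are technical the p-values cover technical spread alone. Polyadenylated RNA was sequenced, and antisense RNAs without a poly(A) tail are therefore not covered.

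ADAR itself was at 92.8, 95.7 and 77.6 counts-per-million (CPM) in siADAR1, against 455.6, 431.5 and 443.5 CPM in control, a log2 fold change of -2.32 ± 0.09 (SE, edgeR adjusted p = 1.06e-08). Library totals were 15175619 to 16903792 counts in siADAR1 and 15497788 to 17329443 in control. Of 10 squamous epithelial markers 9 exceeded 1 CPM, with a summed level of 1140 to 1207 CPM in siADAR1 and 1135 to 1191 in control. Of 6 fibroblast markers 2 exceeded 1 CPM, at 72.3 to 85.0 CPM summed in siADAR1 and 40.1 to 59.4 in control, with DCN at 0, and the part of this difference in the results was not tested. None of 5 leukocyte or 4 endothelial markers reached a mean of 1 CPM. The libraries numbered 1 stood apart within their groups: chi-square per degree of freedom between counts was 14.8 and 18.0 for siADAR1 library 1 against the other siADAR1 libraries and 14.1 and 16.8 for control library 1 against the other controls, while the remaining pairs gave 3.95 and 5.02. For the antisense RNAs and partners named here, and for the ratios printed, calls lost or gained without both of these libraries are given with both values. Ratios that are not printed are not covered. In bulk RNA, fewer cells of a type and less RNA per cell cannot be told apart.

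Sequences are shown for 2 kinds of pair. In the tail-to-tail and nested pairs that moved in opposite directions, exons of the partner and of the antisense RNA occupy the same bases on opposite strands. A stretch of 30 bases from the middle of the longest shared exon part is given for each, read from the GRCh38 transcripts of GENCODE 29, 5′ to 3′, so that the lines of a pair are reverse complements of each other. The longest shared part was 665 bases in the SLC25A25 pair, 344 in the MAP3K14 pair and 154 in the VPS9D1 pair.
SLC25A25-AS1, chr9:128108899-128108928, minus strand: attcagaaaagagtgaaataaagaaaccct
SLC25A25, chr9:128108899-128108928, plus strand: agggtttctttatttcactcttttctgaat
MAP3K14-AS1, chr17:45267573-45267602, plus strand: tctggtgggagaggaggctggagcttaggg
MAP3K14, chr17:45267573-45267602, minus strand: ccctaagctccagcctcctctcccaccaga
VPS9D1-AS1, chr16:89716533-89716562, plus strand: tcctccttcatcggagtatacacggcggtg
VPS9D1, chr16:89716533-89716562, minus strand: caccgccgtgtatactccgatgaaggagga

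For divergent and head-to-head pairs, the RefSeq promoter windows (GRCh38.p14, 250 bases before to 50 after the RefSeq start) are printed for a pair that changed in opposite directions, UBA6-AS1 with UBA6, and for pairs that rose or fell together, ZEB1-AS1 with ZEB1 and TMPO-AS1 with TMPO. The RefSeq start of a gene need not be its GENCODE 29 start. RefSeq names UBA6-AS1 as UBA6-DT. Capitals mark the GC box (GGGCGG) and the CCAAT box (CCAAT), each searched on both strands with overlaps allowed.
UBA6-AS1, chr4:67701028-67701327, plus strand: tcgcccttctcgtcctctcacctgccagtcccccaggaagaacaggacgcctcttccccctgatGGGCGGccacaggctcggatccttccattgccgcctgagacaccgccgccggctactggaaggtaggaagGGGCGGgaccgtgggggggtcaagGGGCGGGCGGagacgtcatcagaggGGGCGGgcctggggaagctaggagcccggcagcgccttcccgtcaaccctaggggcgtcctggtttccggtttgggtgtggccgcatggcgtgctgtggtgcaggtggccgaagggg
UBA6, chr4:67701106-67701405, minus strand: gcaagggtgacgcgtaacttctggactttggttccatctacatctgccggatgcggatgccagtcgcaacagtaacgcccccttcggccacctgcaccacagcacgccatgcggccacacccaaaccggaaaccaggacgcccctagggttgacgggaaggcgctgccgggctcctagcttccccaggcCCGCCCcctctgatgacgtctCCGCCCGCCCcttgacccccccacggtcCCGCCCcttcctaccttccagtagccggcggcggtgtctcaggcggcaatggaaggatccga
ZEB1-AS1, chr10:31319046-31319345, minus strand: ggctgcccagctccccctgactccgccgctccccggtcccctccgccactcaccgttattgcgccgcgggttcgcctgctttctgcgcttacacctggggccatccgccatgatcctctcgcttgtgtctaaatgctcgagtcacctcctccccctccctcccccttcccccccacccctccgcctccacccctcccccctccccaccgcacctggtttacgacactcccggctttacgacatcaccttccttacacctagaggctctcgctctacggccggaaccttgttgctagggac
ZEB1, chr10:31318167-31318466, plus strand: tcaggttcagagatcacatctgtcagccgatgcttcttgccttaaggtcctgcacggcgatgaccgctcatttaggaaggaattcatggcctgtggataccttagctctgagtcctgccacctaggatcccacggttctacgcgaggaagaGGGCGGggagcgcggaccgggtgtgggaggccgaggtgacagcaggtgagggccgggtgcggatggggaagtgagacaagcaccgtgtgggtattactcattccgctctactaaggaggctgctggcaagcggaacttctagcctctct
TMPO-AS1, chr12:98516177-98516476, minus strand: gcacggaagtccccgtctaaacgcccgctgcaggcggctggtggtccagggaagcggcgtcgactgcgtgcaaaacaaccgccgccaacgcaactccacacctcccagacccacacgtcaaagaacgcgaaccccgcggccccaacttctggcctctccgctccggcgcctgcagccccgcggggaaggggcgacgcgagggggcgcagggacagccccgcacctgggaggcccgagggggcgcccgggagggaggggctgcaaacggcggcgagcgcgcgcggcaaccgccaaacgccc
TMPO, chr12:98515323-98515622, plus strand: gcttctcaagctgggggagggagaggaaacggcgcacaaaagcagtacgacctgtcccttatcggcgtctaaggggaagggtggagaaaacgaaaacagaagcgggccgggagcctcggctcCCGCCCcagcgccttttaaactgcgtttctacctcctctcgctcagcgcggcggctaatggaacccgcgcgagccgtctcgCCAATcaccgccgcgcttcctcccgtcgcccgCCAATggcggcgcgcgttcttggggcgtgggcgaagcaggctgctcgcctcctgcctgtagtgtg

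The UBA6 windows held 5 GC boxes on the antisense side and 4 on the partner side, and they share 222 bases of DNA, so most of these are the same sites read from either strand. The windows of the ZEB1 pair share 0 bases, as do those of the TMPO pair. TMPO had 1 GC box and 2 CCAAT boxes, ZEB1 had 1 GC box, and neither antisense window held any. RefSeq windows were found for 107 of the 135 antisense RNAs and 114 partners. A GC box was present in 51.4% of the antisense windows and 60.5% of the partner windows, against 45% of all 35116 windows in the table. A CCAAT box was present in 34.6%, 41.2% and 34.6% of these sets, and a cyclic AMP response element (TGACGTCA) in 3.74%, 7.02% and 1.85%. The median number of CpG dinucleotides was 21 in antisense windows, 23.5 in partner windows and 14 in all windows. Of 52 head-to-head pairs with both windows, 14 had windows that shared bases. Over all positions, 37 of the 135 antisense RNAs start within 1000 bases of the start of the partner. A match is a run of letters and not a bound site.

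Of the 135 antisense RNAs, 40 were higher and 17 lower in siADAR1 than in control at an edgeR adjusted p below 0.05, and 78 did not pass. That is 29.6% higher and 12.6% lower, where 26.0% of all 15294 tested genes were higher and 25.0% lower. Tested genes with at least 100 and under 1000 counts, the range that holds most of the antisense RNAs, were higher in 24.9% and lower in 14.7%. The share of falls was thus near that of genes counted equally thinly. Of the 57 called, 38 kept the call in each fit without 1 library and 47 kept it without both libraries numbered 1. Of those called, 23 rose and 8 fell by 2-fold or more, or 17% and 5.93% of the 135. Over all tested genes 9.85% rose and 4.94% fell by as much, and among those with at least 100 and under 1000 counts 16.8% rose and 7.40% fell, so both shares were near those of genes counted equally thinly. The median log2 fold change was 0.25, with quartiles of -0.29 and 0.74, while it was 0.005 over all tested genes. CPM ranges of the groups did not overlap for 76 antisense RNAs (56.3%), against 60.3% of all tested genes.

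Summed over the 135, antisense RNAs took 895, 809 and 836 CPM of the unscaled library total in siADAR1 and 700.2, 696 and 703 in control. In these unscaled sums the 3 siADAR1 libraries all lay above the 3 controls. The scaling factors used for CPM elsewhere were 1.04 to 1.05 in siADAR1 and 0.957 to 0.963 in control, so scaled sums would lie closer together. On scaled library sizes the median antisense RNA had 3.27, 2.61 and 2.73 CPM in siADAR1. It had 2.72, 2.49 and 2.30 CPM in control, and the ranges of the groups overlap. Precision was limited by depth, since the median SE of a log2 fold change was 0.30 for antisense RNAs, 0.13 for their partners and 0.14 for all genes. Of 48 antisense RNAs with under 200 counts, 8 were higher and 4 lower. Of 53 with at least 200 and under 500 counts 18 were higher and 7 lower, and of 34 with 500 or more 14 were higher and 6 lower. Scaling by library totals alone moved the median of all genes by 0.118 on the log2 scale and their split of calls from 50.9% to 62.9% higher, and then gave 45 antisense RNAs higher and 15 lower with a median of 0.37.

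**Figure D1:**
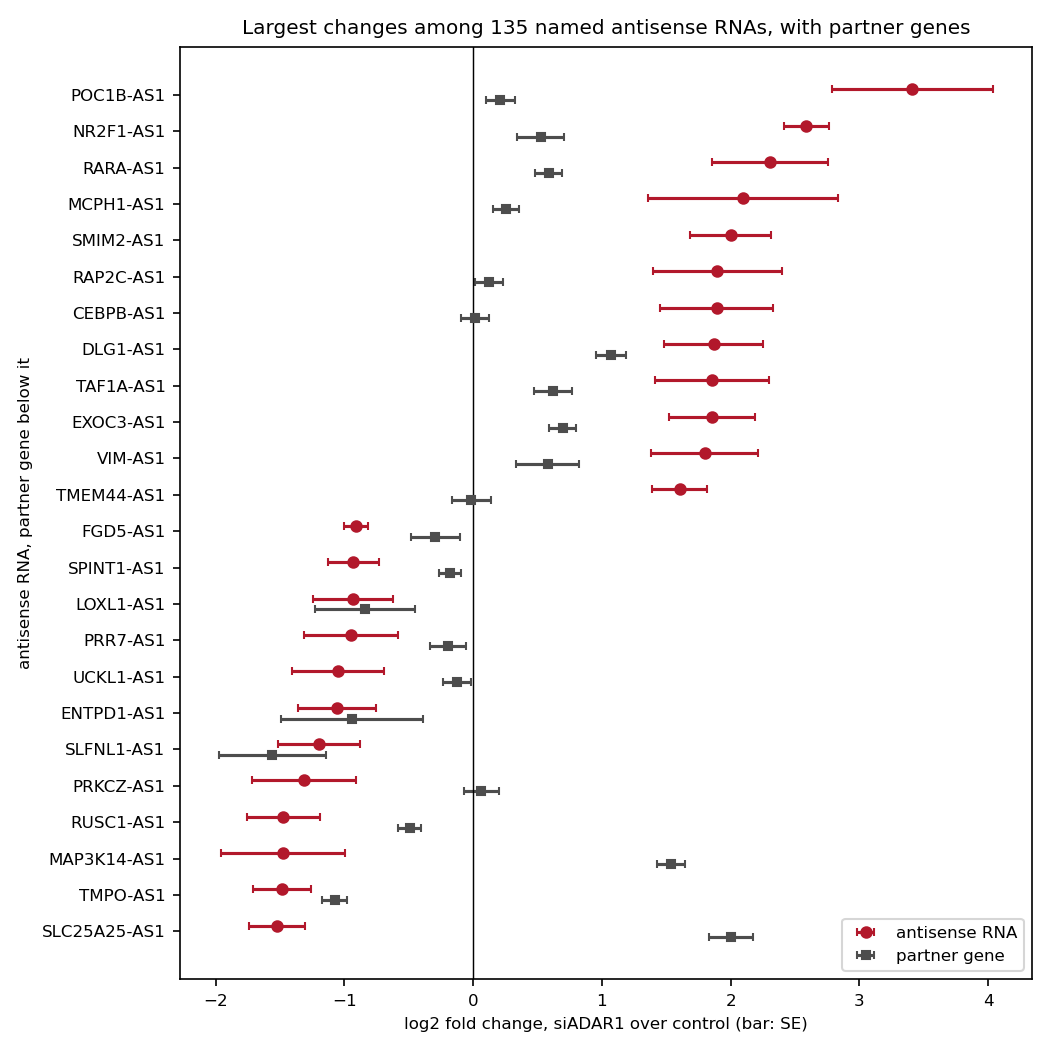
Log2 fold change (siADAR1 over control, x axis) of the 12 antisense RNAs with the largest rises and the 12 with the largest falls among those called and without overlap between groups, with the partner gene in grey below each and SE as bars. POC1B-AS1 rose by 3.41 with its partner at 0.21, and SLC25A25-AS1 fell by 1.52 with its partner at 2.00. SMIM2-AS1 has no partner value because SMIM2 had too few counts to test.

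By length-corrected level (deposited FPKM, mean of the 6 libraries), the antisense RNAs were mostly far below their partners, at a median of 20.6% of the partner over the 122 tested pairs. In 20 of the 122 the antisense RNA was above its partner. FGD5-AS1 was the most abundant, at 21.7 FPKM, which was 3177% of FGD5, a guanine nucleotide exchange factor for CDC42 known from endothelium. TMEM44-AS1 followed at 8.05 FPKM (192% of TMEM44), then BBOX1-AS1 at 7.49, VPS9D1-AS1 at 6.66, AADACL2-AS1 at 5.91 and RAET1E-AS1 at 5.78. POC1B-AS1 was among the least abundant at 0.126 FPKM.

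FGD5-AS1 (ENSG00000225733, chromosome 3, 14920347 to 14948424, minus strand, GRCh38) had 71.3, 76.9 and 86.3 CPM in siADAR1, against 139.6, 149.4 and 151.4 CPM in control. The groups were far apart, and the control libraries lay close together. The log2 fold change was -0.91 ± 0.09 (SE, adjusted p = 6.31e-06), the smallest error among the named antisense RNAs. FGD5 had 5.13, 5.09 and 4.83 CPM in siADAR1 and 6.77, 5.65 and 6.04 in control, and did not pass (-0.29, adjusted p = 0.215). FGD5-AS1 shares 3.4% of its exon bases with FGD5 and 3.0% with NR2C2, which was lower (-0.78, edgeR adjusted p = 2.6e-05). The part of shared reads in the fall of FGD5-AS1 was not tested. The log2 ratio of FGD5-AS1 to FGD5 differed by -0.62 with a 95% interval of -1.09 to -0.16 (limma adjusted p = 0.0298), a call lost without siADAR1 library 1 or 2 or control library 2 or 3 (-0.60 to -0.54, adjusted p from 0.0819 to 0.099). TMEM44-AS1 went the other way, with 17.3, 9.80 and 14.0 CPM in siADAR1 and 4.95, 4.31 and 4.27 in control (1.60 ± 0.22, adjusted p = 5.24e-05), while TMEM44 overlapped between groups (-0.01, adjusted p = 0.946). Of the other abundant members, BBOX1-AS1 passed narrowly at 0.43 ± 0.16 (adjusted p = 0.0439) and lost the call whichever of the 6 libraries was left out (0.33 to 0.48, adjusted p from 0.0602 to 0.143) and without both libraries numbered 1 (0.25, adjusted p = 0.237). RAET1E-AS1 was lower (-0.61 ± 0.18, adjusted p = 0.0108), but 70.6% of its exon bases lie in exons of other genes, 44% in LRP11, whose own change did not pass (-0.45, adjusted p = 0.114). AADACL2-AS1 did not pass (0.26, adjusted p = 0.427).

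**Figure D2:**
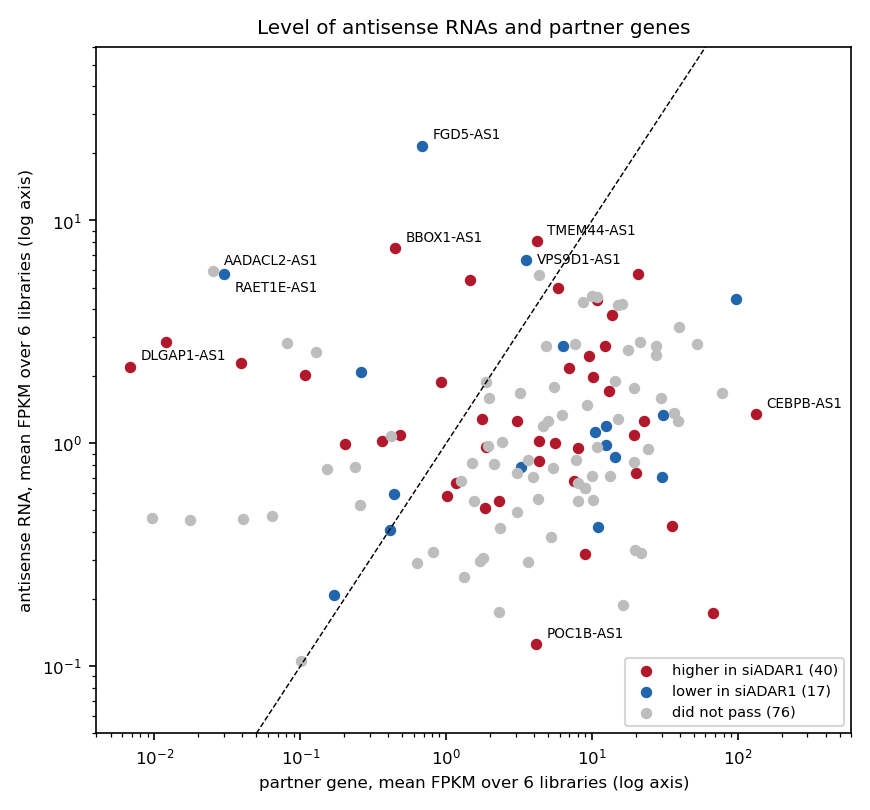
Mean deposited FPKM over the 6 libraries of each antisense RNA (y axis) and its partner (x axis), both on log axes, for 133 pairs in which the partner was above 0, coloured by the antisense RNA's call, with a dashed line of equal level. Most points lie below the line, and FGD5-AS1 at 21.7 FPKM stands highest.

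Pairs were then compared directly. In 24 of the 122 pairs both genes changed in the same direction (19.7%), 21 upward and 3 downward, and in 4 pairs they changed in opposite directions (3.28%). Over all 4184 opposite-strand pairs of tested genes that overlap or lie within 2000 bases, 15.3% changed in the same direction and 9.92% in opposite directions. In 24 pairs the antisense RNA alone passed (14 higher, 10 lower), in 30 the partner alone, and in 40 neither. Partners were higher in 38 (31.1%), lower in 20 (16.4%) and did not pass in 64, with a median of 0.06. Over all tested genes 26.0% were higher and 25.0% lower. Fold changes had the same sign in 78 pairs, and across the 122 pairs the correlation of antisense and partner log2 fold change was 0.322 (Pearson) and 0.409 (Spearman). These pairs come from the same 6 libraries and part of their exons are shared, so the correlations are descriptions. The ratio of antisense to partner changed in 38 pairs (31.1%, 25 upward and 13 downward, limma adjusted p below 0.05), against 43.2% of the 4184 pairs. The 4184 pairs were not matched to the 122 for counts. The median total was 273 counts for the antisense RNAs and 2187 for all tested genes. The part of depth in the differences between these shares, and between those of joint and opposite changes, was not tested.

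**Figure D3:**
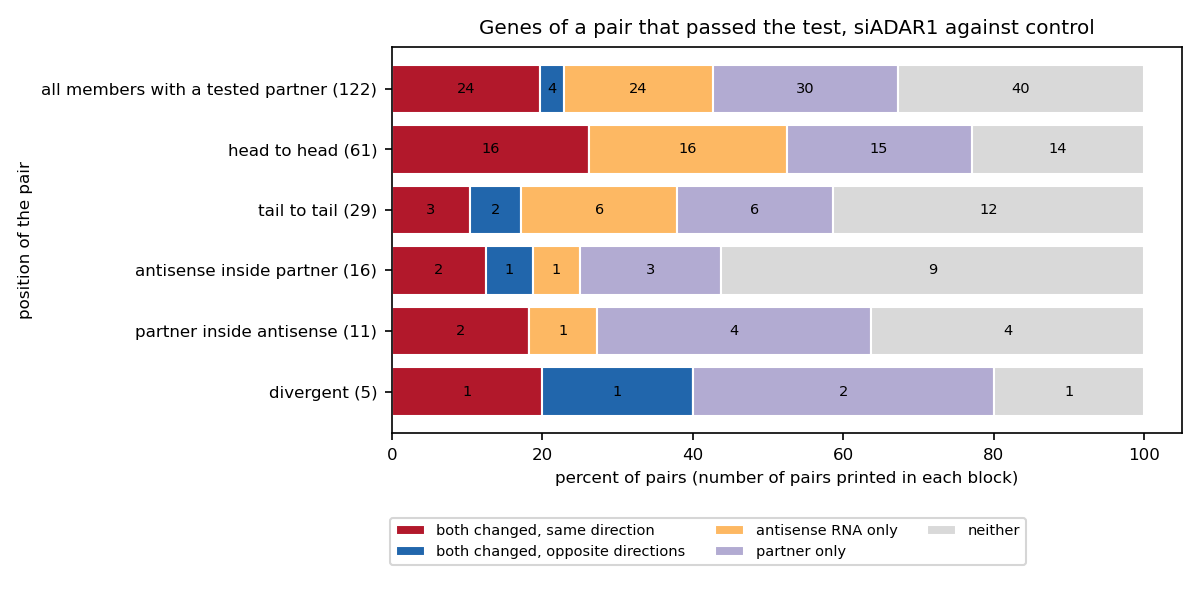
Share of pairs (x axis, percent, with the number of pairs printed in each block) in which both genes, the antisense RNA only, the partner only or neither passed the test, for all 122 pairs and by position of the pair (y axis). The head-to-head row holds 16 pairs that changed in the same direction and 0 in opposite directions.

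The protocol in the labels names no step that marks the strand, and the strand setting of the counting was not given. Whether reads in exon bases shared by a pair were assigned to the right strand is therefore not known. Of the 135 antisense RNAs, 100 share exon bases with the partner and 35 share none, and 19 share none with any gene. The median overlap was 5.9% of the antisense exon bases with the partner and 8.7% with any gene, and 17 exceeded 30%. Of 26 tested pairs with no shared exon base, 4 changed in the same direction and 1 in opposite directions (Spearman 0.270). Of 50 with up to 10% shared, 9 and 0 did so (0.464), and of 46 with more than 10%, 11 and 3 (0.419). The part of shared reads in the same-direction pairs was not tested beyond these counts.

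**Figure D4:**
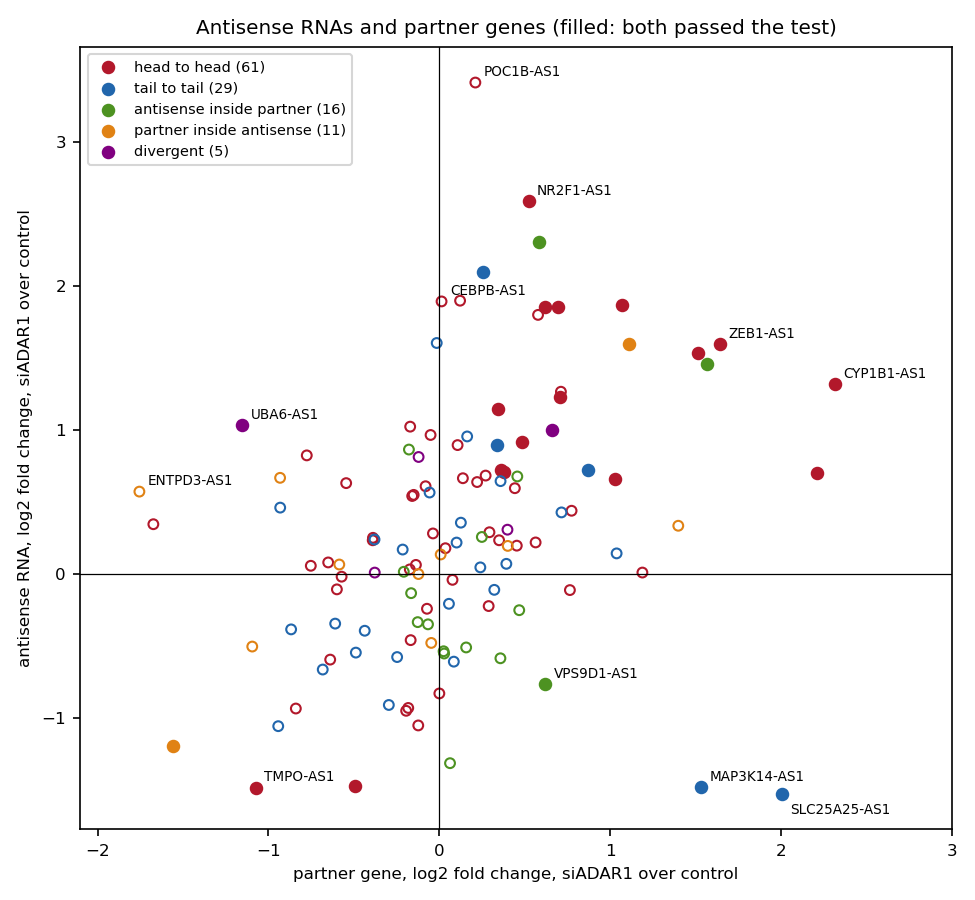
Log2 fold change (siADAR1 over control) of the antisense RNA (y axis) and of its partner (x axis) for 122 pairs, coloured by position, with filled points where both passed the test. The upper right quadrant holds 21 filled points, the lower left 3, and the other quadrants 4, among them SLC25A25-AS1 and UBA6-AS1.

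Head-to-head pairs were the largest class, with 64 antisense RNAs, of which 24 were higher (37.5%), 8 lower (12.5%) and 32 did not pass (median 0.49). Over all tested genes 26.0% were higher and 25.0% lower. Among those with at least 100 and under 1000 counts the shares were 24.9% and 14.7%. The same shares stand beside the positions below. Of the 61 head-to-head pairs with a tested partner, 16 changed in the same direction (26.2%, against 19.7% of all 122 pairs). In opposite directions 0 changed, against 3.28% of the 122. In 16 the antisense RNA alone passed and in 15 the partner alone, with a Spearman correlation of 0.550. The ratio changed in 22 (36.1%). Whether these shares differ from those of the other positions was not tested. The 2 largest rises, of POC1B-AS1 and NR2F1-AS1, and 16 of the 24 same-direction pairs belong to this class, which holds 61 of the 122 pairs.

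NR2F1-AS1 (ENSG00000237187, chromosome 5, 93409359 to 93585648, minus strand) had 19.1, 16.5 and 16.0 CPM in siADAR1, against 2.96, 2.69 and 2.89 CPM in control. The lowest siADAR1 library was several times the highest control, and the control libraries nearly coincided. The difference was 6.01-fold (log2 2.59 ± 0.17, adjusted p = 2.88e-07). NR2F1, an orphan nuclear receptor that acts as a transcription factor, had 8.85, 8.40 and 9.85 CPM in siADAR1 and 5.32, 6.26 and 7.29 in control. It passed at 0.52 ± 0.18 (adjusted p = 0.029), and lost the call without any 1 of the libraries other than control library 3 (0.40 to 0.57, adjusted p from 0.0501 to 0.102) and without both libraries numbered 1 (0.43, adjusted p = 0.0688). The ratio of NR2F1-AS1 to NR2F1 was higher by 2.01 on the log2 scale (95% interval 1.56 to 2.46, limma adjusted p = 5.42e-07). The exons share 2% of the antisense bases.

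POC1B-AS1 (ENSG00000270344, chromosome 12, 89525654 to 89548005, plus strand) had the largest fold change. It had 45, 19 and 30 counts in siADAR1 and 5, 0 and 3 counts in control, or 2.54, 1.21 and 1.91 CPM against 0.302, 0 and 0.197 CPM. A library with 0 counts allows up to 0.194 CPM, a floor of 3 counts on its total. The groups did not overlap (3.41 ± 0.63, adjusted p = 0.000583), though the control level rests on 8 counts. The rule that named the largest rises and falls required groups without overlap, so this separation is part of the choice. Most counts of POC1B-AS1 came from siADAR1, and it met the minimum of summed counts mainly through that group. POC1B, a centriole protein gene that starts 370 bases away and shares no exon base with it, had 36.7, 38.5 and 42.5 CPM in siADAR1 and 30.7, 35.5 and 35.4 in control (0.21 ± 0.11, adjusted p = 0.129). The ratio was higher by 2.66 (95% interval 1.49 to 3.82, limma adjusted p = 0.000727).

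CEBPB-AS1 rose beside a partner that did not pass. It had 8.85, 3.88 and 4.45 CPM in siADAR1, against 1.75, 2.29 and 0.591 CPM in control (1.89 ± 0.44, adjusted p = 0.00386). CEBPB, a leucine zipper transcription factor of inflammatory and differentiation programmes and the most abundant of the partners named here by FPKM, had 289, 240 and 263 CPM in siADAR1 and 301, 257 and 227 in control, with interleaved values (0.01, adjusted p = 0.926). The ratio was higher by 1.86 (95% interval 1.09 to 2.63, limma adjusted p = 0.000445). RAP2C-AS1, beside a gene for a small GTPase of the Ras family, had 1.58, 1.72 and 2.10 CPM in siADAR1 and 0.121, 0.673 and 0.657 in control (1.90 ± 0.50, adjusted p = 0.00644), and RAP2C did not pass (0.12, adjusted p = 0.371). Most counts of RAP2C-AS1 came from siADAR1, through which it met the minimum. Its level in control library 1 was below the floor of 0.173 CPM. VIM-AS1 rose (1.80 ± 0.41, adjusted p = 0.00278) with 32.2% of its exon bases shared with VIM, the gene of the intermediate filament vimentin. VIM did not pass with all libraries (0.58, adjusted p = 0.0641) and passed without siADAR1 library 1 (0.78, adjusted p = 0.0159) and without both libraries numbered 1 (0.71, adjusted p = 0.00844).

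In the joint rises, ZEB1-AS1 and its partner kept pace. ZEB1-AS1 (chromosome 10, 31206278 to 31320447, minus strand) had 5.81, 6.24 and 5.98 CPM in siADAR1, against 2.66, 1.68 and 1.58 CPM in control. ZEB1, a zinc finger repressor of E-cadherin known for its role in epithelial-mesenchymal transition, had 5.87, 4.39 and 4.26 CPM in siADAR1 and 1.33, 1.68 and 1.64 in control. In each gene all siADAR1 libraries lay above all controls. The log2 fold changes were 1.60 ± 0.26 (adjusted p = 0.000204) and 1.64 ± 0.27 (adjusted p = 0.000255), and their ratio differed by 0.03 with a 95% interval of -0.64 to 0.69 (limma adjusted p = 0.954).

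DLG1-AS1 rose with DLG1, a scaffold protein of cell polarity. The antisense RNA had 3.89, 2.36 and 2.54 CPM in siADAR1 and 0.544, 1.14 and 0.723 in control (1.87 ± 0.38, adjusted p = 0.00128), and DLG1 was at 293 ± 24.0 CPM in siADAR1 and 139.4 ± 22.6 in control (SD, n = 3 each, 1.07 ± 0.11, adjusted p = 8.04e-06). EXOC3-AS1, whose start lies 2 bases from that of the exocyst subunit gene EXOC3, had 5.64, 4.65 and 3.24 CPM in siADAR1 and 1.27, 1.68 and 0.788 in control (1.85 ± 0.33, adjusted p = 0.000501). EXOC3 rose less (0.69 ± 0.10, adjusted p = 9.73e-05), and the ratio was higher by 1.08 (limma adjusted p = 0.0111), a call lost without siADAR1 library 2 or control library 3 (0.98 and 0.84, adjusted p = 0.0621 and 0.0536). TAF1A-AS1 rose by 1.86 ± 0.44 (adjusted p = 0.00339) beside TAF1A, which encodes a subunit of the RNA polymerase I selectivity factor (0.62 ± 0.15, adjusted p = 0.00398). THAP9-AS1 rose by 0.66 ± 0.13 (adjusted p = 0.00107) beside THAP9, a gene derived from a DNA transposase (1.03 ± 0.23, adjusted p = 0.00202).

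Some joint rises outside the naming rule were chosen after their values were seen. TNFRSF14-AS1 had 6.37, 4.07 and 4.77 CPM in siADAR1, against 1.33, 2.42 and 1.51 CPM in control, without overlap (1.54 ± 0.30, adjusted p = 0.000876). TNFRSF14, a receptor of the tumour necrosis factor family also called HVEM, had 28.7, 17.8 and 18.2 CPM in siADAR1 and 9.79, 4.85 and 7.95 in control (1.51 ± 0.26, adjusted p = 0.000634). CYP1B1, a cytochrome P450 induced through the aryl hydrocarbon receptor, had 529, 282 and 270.04 CPM in siADAR1 and 103, 54.7 and 59.5 in control (2.32 ± 0.42, adjusted p = 0.00817). Library 1 was the highest of its group on either side. CYP1B1-AS1 had 7.22, 3.37 and 3.11 CPM in siADAR1 and 2.24, 1.95 and 1.31 in control (1.32 ± 0.36, adjusted p = 0.00789), and lost the call without siADAR1 library 1 (0.82, adjusted p = 0.0619). The ratio differed by -1.12 with a 95% interval of -1.73 to -0.51 (limma adjusted p = 0.00425). CCDC144NL-AS1 rose less than CCDC144NL in the same way (0.70 against 2.21, ratio -1.40, limma adjusted p = 0.000637), but both belong to families with near-identical copies and their read assignment is uncertain.

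The joint falls were 3 pairs, 2 of them head to head. All 3 share more than 10% of the antisense exon bases with the partner, and the part of shared reads in these falls was not tested. TMPO-AS1 (chromosome 12, 98512973 to 98516422, minus strand) had 1.97, 2.55 and 2.67 CPM in siADAR1, against 7.37, 6.60 and 6.11 CPM in control (-1.48 ± 0.23, adjusted p = 0.000137). TMPO, which encodes the lamina-associated polypeptide of the inner nuclear membrane, had 147, 179 and 188 CPM in siADAR1 and 343, 370.4 and 367 in control (-1.07 ± 0.10, adjusted p = 2.34e-06). The groups were apart for either gene, and the ratio did not pass (-0.36, 95% interval -0.87 to 0.14, limma adjusted p = 0.239). RUSC1-AS1 had 1.64, 1.66 and 1.59 CPM in siADAR1 and 5.92, 3.57 and 4.07 in control (-1.47 ± 0.28, adjusted p = 0.000812), and RUSC1 was at -0.49 ± 0.09 (adjusted p = 0.000473). Their ratio differed by -0.89 (limma adjusted p = 0.0168), a call lost without control library 1 (-0.71, adjusted p = 0.0889) and without both libraries numbered 1 (-0.69, adjusted p = 0.112). The exons of RUSC1-AS1 also share 19.7% of their bases with FDPS, the gene of farnesyl diphosphate synthase in the cholesterol pathway, which was at -0.36 (adjusted p = 0.0202), a call lost without siADAR1 library 1 or 2 or control library 1 or 2 (-0.37 to -0.28, adjusted p from 0.0501 to 0.0547) and without both libraries numbered 1 (-0.24, adjusted p = 0.0559). SLFNL1-AS1, which encloses SLFNL1, was at -1.19 ± 0.32 (adjusted p = 0.00705), and SLFNL1 was at -1.56 ± 0.42 (adjusted p = 0.00703), a call lost without both libraries numbered 1 (-0.93, adjusted p = 0.0872).

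Other head-to-head antisense RNAs fell without a call for the partner. SPINT1-AS1 had 4.00, 3.76 and 3.69 CPM in siADAR1, against 7.07, 8.41 and 6.37 CPM in control (-0.93 ± 0.20, adjusted p = 0.00182). SPINT1, which encodes the serine protease inhibitor HAI-1 of epithelia, had 299, 335 and 337 CPM in siADAR1 and 394, 343 and 364 in control (-0.18 ± 0.08, adjusted p = 0.0915). The ratio differed by -0.72 (limma adjusted p = 0.016), a call lost without siADAR1 library 2 or 3 or control library 2 (-0.69 to -0.57, adjusted p from 0.0518 to 0.0975). UCKL1-AS1 was at -1.05 (adjusted p = 0.0252), PRR7-AS1 at -0.95 (adjusted p = 0.0447) and LOXL1-AS1 at -0.93 (adjusted p = 0.0238). Each of these calls was lost when libraries were left out. Without both libraries numbered 1 the values were -0.66 (adjusted p = 0.109) for UCKL1-AS1, -0.72 (adjusted p = 0.178) for PRR7-AS1 and -0.62 (adjusted p = 0.157) for LOXL1-AS1. The UCKL1-AS1 call was also lost without siADAR1 library 1 or 2 or control library 1 or 3 (adjusted p from 0.0507 to 0.0831), that of LOXL1-AS1 without the same libraries (0.055 to 0.0865), and that of PRR7-AS1 without any but control library 3 (0.077 to 0.175). PRR7-AS1 shares 5.8% of its exon bases with GRK6, which was lower (-0.92, edgeR adjusted p = 8.04e-06). UCKL1-AS1 shares 7.9% with ZNF512B, which was higher (0.89, edgeR adjusted p = 6.27e-06). LOXL1, a lysyl oxidase gene of elastic fibres, did not pass with all libraries (-0.84, adjusted p = 0.0881) and passed without siADAR1 library 3 (-1.23, adjusted p = 0.04).

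Tail-to-tail pairs showed the opposite changes with the largest difference. Of 32 antisense RNAs in this position 7 were higher (21.9%), 5 lower (15.6%) and 20 did not pass (median 0.16). Among 29 tested pairs 3 changed in the same direction and 2 in opposite directions, with a Pearson correlation of -0.053 and a Spearman correlation of 0.241.

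SLC25A25-AS1 (ENSG00000234771, chromosome 9, 128108581 to 128118693, minus strand) had 3.33, 3.44 and 3.05 CPM in siADAR1, against 11.0, 7.13 and 10.1 CPM in control. The siADAR1 libraries nearly coincided, below all controls (-1.52 ± 0.22, adjusted p = 7.72e-05). SLC25A25 (128068201 to 128109245, plus strand), a mitochondrial carrier of ATP-magnesium and phosphate, had 129, 85.8 and 86.5 CPM in siADAR1 and 29.2, 21.5 and 24.3 in control (2.00 ± 0.17, adjusted p = 5.2e-06). Every siADAR1 library was above every control. The log2 ratio of antisense to partner was -3.45 (95% interval -3.94 to -2.97, limma adjusted p = 2.39e-09). The exons share 10.4% of the antisense bases, within which the 30-base stretch printed above lies.

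MAP3K14 encodes the NF-kB-inducing kinase NIK, the entry kinase of the non-canonical NF-kB pathway. It had 102, 100.5 and 83.0 CPM in siADAR1 and 35.0, 32.8 and 30.7 in control (1.54 ± 0.11, adjusted p = 4.26e-07). MAP3K14-AS1 (chromosome 17, 45247925 to 45268630, plus strand) had 9, 18 and 14 counts in siADAR1 and 32, 59 and 18 in control, or 0.508, 1.15 and 0.89 CPM against 1.93, 3.97 and 1.18 CPM. The highest siADAR1 library was close to the lowest control. The fall of the antisense RNA passed at -1.48 ± 0.48 (adjusted p = 0.0213), and lost the call without control library 2 (-0.89, adjusted p = 0.16) or siADAR1 library 1 (-1.20, adjusted p = 0.0844). The log2 ratio differed by -2.79 (95% interval -3.71 to -1.87, limma adjusted p = 4.79e-05). MAP3K14-AS1 shares more than 10% of its exon bases with MAP3K14 and 5.6% with SPATA32. The part of shared reads in these values was not tested.

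**Figure D5:**
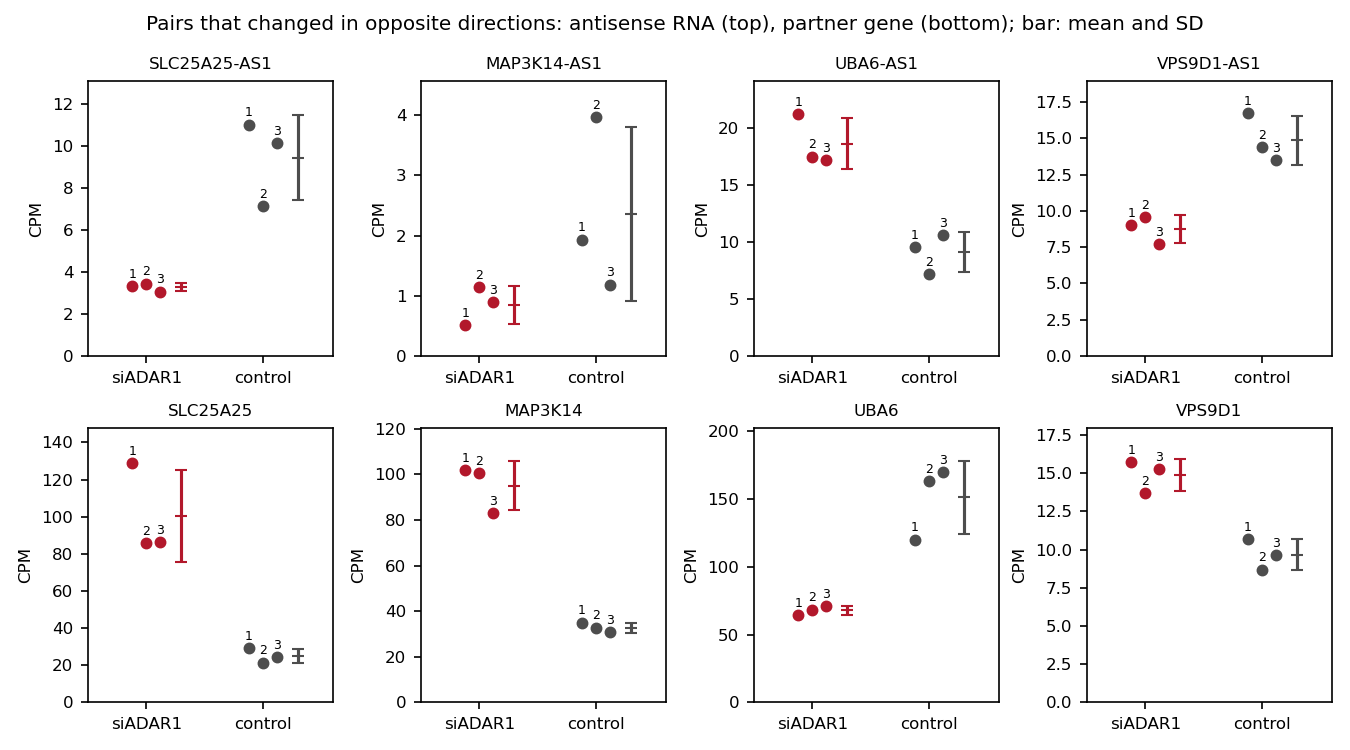
CPM in each library (points, numbered by replicate) with mean and SD (bars), siADAR1 left and control right, for the 4 pairs that changed in opposite directions, antisense RNA above and partner below. The groups do not overlap in any panel, and the MAP3K14-AS1 groups come closest, at 1.15 CPM in siADAR1 library 2 and 1.18 CPM in control library 3.

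Among the other tail-to-tail members, MCPH1-AS1 had a call that varied with the libraries used. It had 8.57, 2.04 and 1.91 CPM in siADAR1, against 1.57, 1.01 and 0.328 CPM in control (2.10 ± 0.74, adjusted p = 0.0457). Without siADAR1 library 1 the value was 1.01 (adjusted p = 0.147), and the call was also lost without control library 1, 2 or 3, at 2.64, 2.11 and 1.68 with adjusted p from 0.0617 to 0.13, while without both libraries numbered 1 it stood at 1.55 (adjusted p = 0.0132). MCPH1, the gene of microcephalin in the DNA damage response, was at 0.26 (adjusted p = 0.0431), a call lost without any 1 library other than siADAR1 library 1 (0.22 to 0.29, adjusted p from 0.0674 to 0.146). ENTPD1-AS1 fell (-1.06 ± 0.30, adjusted p = 0.0104) beside ENTPD1, which encodes the ectonucleotidase CD39 and did not pass at -0.94 (adjusted p = 0.17). NOP14-AS1, chosen after its values were seen, was among the most precisely measured rises at 0.90 ± 0.11 (adjusted p = 3.5e-05), with NOP14, a factor of small ribosomal subunit assembly, at 0.34 (adjusted p = 0.0175), a call lost without siADAR1 library 1 or control library 2 or 3 (0.26 to 0.30, adjusted p from 0.061 to 0.09).

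Antisense RNAs inside the body of the partner numbered 19, of which 4 were higher (21.1%) and 2 lower (10.5%), with a median of -0.25. Among 16 tested pairs 2 changed in the same direction and 1 in opposite directions, with a Spearman correlation of 0.059. VPS9D1-AS1 (chromosome 16, 89711856 to 89718165, plus strand) had 9.02, 9.55 and 7.69 CPM in siADAR1, against 16.7, 14.4 and 13.5 CPM in control (-0.76 ± 0.16, adjusted p = 0.00142). VPS9D1, the gene around it, had 15.7, 13.7 and 15.3 CPM in siADAR1 and 10.7, 8.68 and 9.66 in control (0.62 ± 0.15, adjusted p = 0.00402). The groups were apart for either gene, and the ratio differed by -1.37 (95% interval -1.76 to -0.99, limma adjusted p = 7.63e-06). In this pair 29.5% of the antisense exon bases are shared.

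RARA-AS1 had 2.76, 1.40 and 1.97 CPM in siADAR1, against 0.302, 0.538 and 0.394 CPM in control (2.31 ± 0.45, adjusted p = 0.000844). RARA, the retinoic acid receptor alpha gene that encloses it, was at 43.3 ± 0.795 CPM in siADAR1 and 28.8 ± 1.71 in control (SD, n = 3 each, 0.59 ± 0.10, adjusted p = 0.000415), and 31.1% of the antisense exon bases are shared. The ratio was higher by 1.39 (limma adjusted p = 0.0137), a call lost without siADAR1 library 1 (1.14, adjusted p = 0.103) or 3 (1.38, adjusted p = 0.0509) and without both libraries numbered 1 (0.94, adjusted p = 0.164). PRKCZ-AS1, inside the gene of an atypical protein kinase C, had 0.451, 1.08 and 0.826 CPM in siADAR1 and 2.11, 2.15 and 1.58 in control (-1.31 ± 0.41, adjusted p = 0.0157), while PRKCZ values were interleaved (0.06, adjusted p = 0.718). Its call was lost without siADAR1 library 1 (-1.02, adjusted p = 0.0654), control library 2 (-1.24, adjusted p = 0.0506) or both libraries numbered 1 (-0.96, adjusted p = 0.0899). FRMD6-AS1, chosen after its values were seen, shares no exon base with any gene. It had 2.54, 2.29 and 2.48 CPM in siADAR1 and 0.906, 1.28 and 0.460 in control (1.46 ± 0.39, adjusted p = 0.00704), and FRMD6, a FERM-domain gene linked to Hippo signalling, rose by 1.57 ± 0.11 (adjusted p = 4.4e-07). DLGAP1-AS1 rose by 0.75 (adjusted p = 0.0206), a call lost without siADAR1 library 2 or control library 1 or 3 (0.59 to 0.66, adjusted p from 0.0549 to 0.0929), and DLGAP1 had too few counts to test.

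In 14 cases the antisense gene encloses the partner, and 3 of these antisense RNAs were higher (21.4%) and 2 lower (14.3%), with a median of 0.10. SMIM2-AS1 had 5.58, 4.84 and 4.07 CPM in siADAR1, against 1.15, 1.68 and 0.788 CPM in control (2.00 ± 0.31, adjusted p = 0.000164), with SMIM2 too thinly counted to test. LMCD1-AS1, chosen after its values were seen and free of shared exon bases, had 4.51, 5.86 and 4.70 CPM in siADAR1 and 1.57, 1.55 and 1.84 in control (1.60 ± 0.26, adjusted p = 0.000213). LMCD1, a LIM-domain cofactor gene, rose with it (1.11 ± 0.13, adjusted p = 2.09e-05). ENTPD3, an ectonucleotidase gene, fell to 2.99, 4.84 and 4.32 CPM in siADAR1, against 16.0, 11.3 and 13.6 CPM in control (-1.76 ± 0.21, adjusted p = 2.18e-05). ENTPD3-AS1 did not pass, at 4.40, 3.57 and 2.92 CPM in siADAR1 and 2.60, 2.83 and 1.91 in control (0.57 ± 0.28, adjusted p = 0.102), and the ratio differed by 2.28 (limma adjusted p = 1.81e-05). The pair was also chosen after its values were seen.

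The divergent position held 5 antisense RNAs, of which 2 were higher (40%) and 0 lower. UBA6-AS1 (ENSG00000248049, chromosome 4, 67701280 to 68080952, plus strand) starts 101 bases from UBA6 and shares no exon base with it. It had 21.2, 17.5 and 17.2 CPM in siADAR1, against 9.55, 7.20 and 10.6 CPM in control (1.03 ± 0.17, adjusted p = 0.000254). UBA6, which encodes an activating enzyme of ubiquitin and of the ubiquitin-like protein FAT10, had 64.5, 68.5 and 71.3 CPM in siADAR1 and 120.1, 163 and 170.2 in control (-1.15 ± 0.12, adjusted p = 7.24e-06). The groups did not overlap for either gene, and the ratio was higher by 2.17 (95% interval 1.73 to 2.60, limma adjusted p = 1.45e-07). Of the 4 pairs that changed in opposite directions it was the 1 in which the antisense RNA rose and the partner fell, and their promoter windows share 222 bases, as printed above. Exons of other genes cover 29.3% of UBA6-AS1, and these genes had 4 to 43 counts in all libraries together. TGFB2-AS1, chosen after its values were seen, rose (1.00 ± 0.35, adjusted p = 0.0275) with TGFB2, a transforming growth factor beta gene (0.66, adjusted p = 0.0147), again with no shared exon base. The TGFB2-AS1 call was lost without siADAR1 library 2 or control library 1 (0.87 and 0.67, adjusted p = 0.104 and 0.0862) and without both libraries numbered 1 (0.72, adjusted p = 0.074). That of TGFB2 was lost without siADAR1 library 2 (0.61, adjusted p = 0.0505), and without control library 1 its value was 0.44.

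Partners that fell beside an antisense RNA that did not pass were chosen after their values were seen. SDCBP2 was at -1.67 (adjusted p = 0.00231) with SDCBP2-AS1 at 0.35 (adjusted p = 0.35), and the ratio differed by 1.92 (limma adjusted p = 0.000602). GATA2, a zinc finger transcription factor, had 10.9, 10.2 and 9.66 CPM in siADAR1, against 18.9, 17.0 and 16.7 CPM in control (-0.78 ± 0.14, adjusted p = 0.000529). GATA2-AS1 had 2.99, 2.04 and 1.46 CPM in siADAR1 and 1.09, 1.01 and 1.58 in control, and the groups overlap (0.82 ± 0.38, adjusted p = 0.0863). The ratio of GATA2-AS1 to GATA2 was higher by 1.49 (limma adjusted p = 0.00248).

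The minimum of 100 summed counts fell between genes of nearly equal total. Just inside it, ASH1L-AS1 and TBX2-AS1 had 100 counts and PRRT3-AS1 had 101, with log2 fold changes of 0.44, 0.34 and 1.02. Just outside it, NFYC-AS1 had 99 counts (-0.89), THAP7-AS1 99 (1.32) and PARD6G-AS1 98 (-0.02). Of the 135, 113 had at least 50 counts in each group, 18 had fewer than 50 in control and 4 had fewer than 50 in siADAR1, so a member that is high in 1 group could enter through that group.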

How the data were processed

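Polyadenylated RNA was sequenced from 3 siADAR1 and 3 control samples of KYSE410. The submitters' processing notes list CASAVA, fastp and HISAT2 2.0.5 without saying what each did. The counting tool, its strand setting, the genome build and the annotation used for counting were not given in the sources used here. Gene coordinates, strands and lengths of all 58735 genes equalled those of GENCODE release 29 on GRCh38.

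Counts per gene were deposited by the authors as whole numbers without normalization. Deposited FPKM values, length-corrected and scaled with a library factor of the authors' own, were used for levels between genes and as an alternative. The authors' group means were not used. Columns were matched to samples by the group and number in the titles, with 0 left over. The labels carry 1 batch value.

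Counts were tested in R 4.3.3 with edgeR 4.0.16 (filterByExpr with a minimum count of 10, TMM scaling, robust quasi-likelihood F test, two-sided, Benjamini-Hochberg over 15294 genes, threshold 0.05). All 135 antisense RNAs passed the filter. CPM are on scaled library sizes. The ratio of antisense to partner was tested with limma 3.58.1 on log2 CPM ratios (prior count 2, variance trend on the lower mean log2 CPM), adjusted over 4184 opposite-strand pairs within 2000 bases, and intervals are 95%. Both tests were tested on simulated data, where the share of false calls among the calls came out above the threshold. Each test also missed most of the small changes, the ratio test more of them, so calls just below 0.05 are the least certain. Far fewer genes were changed there than were called here, so the share of false calls need not carry over. Positions and exon overlap came from GENCODE 29, and promoter windows from RefSeq tables.

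Members, lists and tests were chosen with earlier results of these data known. Genes were named by rule: ADAR, the 12 largest rises and 12 largest falls called without overlap, pairs called in opposite directions, the 6 highest by FPKM, the 3 nearest the minimum on either side, and 12 widely studied antisense RNAs where they were members. Others are marked as chosen after their values were seen. Alternatives were other size factors, library totals, DESeq2 1.42.0, other filters, limma on FPKM, a replicate block, leaving out libraries, other minima of 50 and 300 counts, and a prior count of 0.5. A floor of 3 counts on a library total is 0.173 to 0.198 CPM and covers counting error only.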

Additional observations from a re-analysis of the deposited data

How the results depend on the processing

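ADAR and the named genes that passed kept their direction in the 16 alternative fits. Of 48 named genes that passed, 24 kept the call in each of the 16 and 24 lost it in at least 1, most often on FPKM with a pseudocount of 1 and no filter. That setting gave 17 antisense RNAs higher and 7 lower, 17 partners higher and 10 lower, and 6 pairs changed in the same direction, where the median antisense RNA had 1.01 FPKM. Leaving out 1 library at a time gave 30 to 35 antisense RNAs higher and 11 to 16 lower (11 without siADAR1 library 1), 31 to 35 partners higher and 19 to 23 lower, 18 to 20 pairs changed in the same and 3 or 4 in opposite directions, and 26 to 36 changed ratios. Without both libraries numbered 1 these counts were 36, 13, 42, 24, 21, 5 and 28. A minimum of 50 counts for membership gave 64 partners higher and 35 lower, 7 pairs in opposite directions and 58 changed ratios. A minimum of 300 gave 25 antisense RNAs higher and 9 lower, 18 partners higher and 7 lower, 13 pairs in the same direction and 21 changed ratios, which follows from the number of members. Deviations of same-numbered samples correlated at 0.251, 0.084 and 0.106. Those of a library numbered 1 with libraries 2 and 3 of the other group correlated at -0.169 to -0.13. Across the groups, libraries 2 and 3 correlated at 0.067 and 0.092, near the same-numbered values, so the numbers were not taken to pair the samples. The libraries numbered 1 deviated in part together, and the main test holds no term for this. With the replicate number as a block, 42 antisense RNAs were higher and 18 lower, 42 partners higher and 21 lower, 27 pairs changed in the same and 4 in opposite directions, and 43 ratios changed. Depth limited the thinner antisense RNAs: under 200 counts, 8 of 8 higher calls and 3 of 4 lower calls were of 2-fold or more.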

Other observations

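Antisense genes outside the 135 were counted by annotation in the same test. Of the 732 antisense genes named -AS1 with fewer than 100 counts, 252 had no count in any library and 67 could be tested, 15 of them higher in siADAR1 and 0 lower (median log2 fold change 0.52). A gene that thin passes the filter mostly through the group where it is high, so these counts describe no more than the genes tested. Of 75 tested -AS1 genes of other biotypes 24 were higher and 3 lower (0.38), and of 451 tested antisense genes with other names 100 were higher and 39 lower (0.22). Of 17 tested -AS2 and -AS3 genes 6 were higher and 1 lower (0.23), and of 36 tested genes named -DT, -IT1 or -OT1, 7 were higher and 1 lower (0.02). Long intergenic RNAs had 183 of 585 higher and 29 lower (0.50), and protein-coding genes 3346 of 12745 higher and 3563 lower (-0.02).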
